A study of Mus musculus with 4 samples.

Results

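The chemokine receptor gene Cxcr3 and the genes of its ligands, Cxcl9 and Cxcl10, were followed through single liver leukocytes before and 12 h after cancer cells entered the spleen. The 3 genes were taken by symbol from the 32285 features of the deposited matrices, each symbol matches 1 gene identifier, and raw counts were read in all 4 libraries. The mice carried the IL-22sgBFP reporter, in which blue fluorescent protein (BFP) marks cells that express Il22. MC38 cells, a mouse colon carcinoma line, were injected into the spleen, from which they reach the liver. CD45+ liver cells, meaning leukocytes, were sorted by BFP into IL-22-negative and IL-22-positive fractions at 0 h, before injection, and at 12 h after it, which gives 4 groups of 1 library each. All groups share the reporter genotype, how many mice entered each library is not stated, and injection alone was not sampled, so the effects of surgery and of cancer cells cannot be told apart.

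CXCR3 is a G-protein-coupled receptor of activated type 1 T cells, NK cells, innate-like lymphocytes and plasmacytoid dendritic cells, and it guides them towards its ligands. CXCL9 and CXCL10 are small secreted chemokines: interferon gamma is the classical inducer of both, while type I interferons and NF-kappaB also drive CXCL10. In the inflamed liver the ligands are known to draw T cells and NK cells into the tissue. The third ligand gene, Cxcl11, was not analysed here.

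In GRCm38 with GENCODE annotation, all 3 genes are protein-coding and lie on the minus strand. Cxcl9 (ENSMUSG00000029417) spans chromosome 5 from 92321347 to 92328079, and Cxcl10 (ENSMUSG00000034855) spans 92346638 to 92348889. The pair lie 18558 bases apart, with 0 annotated genes wholly between them. Genes that overlap only part of this gap were not counted. Cxcr3 (ENSMUSG00000050232) spans chromosome X from 101731535 to 101734269. The 250 bases before each ligand's RefSeq start (GRCm38.p6, minus strand, read 5′ to 3′) are shown because the ligands differed in which cells held them. Capitals mark matches, on either strand, to the interferon-stimulated response element (GAAA, any 2 bases, GAAA), the NF-kappaB element (GGGA, any 1 or 2 bases, TTCC) or the T-box element. The 2 NF-kappaB forms differ in length and no match of one overlapped a match of another motif. The Cxcl9 window is chr5:92328080-92328329 and the Cxcl10 window chr5:92348890-92349139.
Cxcl9: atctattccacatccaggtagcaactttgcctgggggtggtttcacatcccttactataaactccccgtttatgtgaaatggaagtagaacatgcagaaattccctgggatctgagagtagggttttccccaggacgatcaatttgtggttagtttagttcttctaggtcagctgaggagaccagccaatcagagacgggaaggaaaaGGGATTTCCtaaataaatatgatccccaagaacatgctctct
Cxcl10: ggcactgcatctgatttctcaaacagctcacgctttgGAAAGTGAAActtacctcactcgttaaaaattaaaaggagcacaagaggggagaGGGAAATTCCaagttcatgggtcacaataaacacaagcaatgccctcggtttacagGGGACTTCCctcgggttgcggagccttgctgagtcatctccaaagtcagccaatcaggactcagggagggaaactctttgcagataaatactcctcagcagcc
The Cxcl10 window held 1 interferon-stimulated response element, from 213 to 204 bases before the start, and NF-kappaB matches from 159 to 150 and from 103 to 95 bases. The Cxcl9 window held 1 NF-kappaB match, from 42 to 34 bases before the start. Of 32536 promoter windows of this length, 2.98% held the response element, 1.44% and 1.21% the shorter and longer NF-kappaB forms, and 1.12% the T-box motif. A match is a description of letters, and no match says only that these letters are not in the window.

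After filtering, 8002 and 9635 IL-22-negative cells of 0 h and 12 h and 288 and 1348 IL-22-positive cells were kept, with median depths of 1797.5, 2167, 3386 and 3715.5 UMIs. A UMI (unique molecular identifier) marks a captured transcript, and CPM is the number of UMIs per 1000000 in a sum of cells. Intervals in brackets are exact 95% intervals that cover counting error only, and each ratio compares 2 libraries rather than conditions. IL-22-negative libraries were mostly lymphocytes, and IL-22-positive libraries were mostly monocyte-like cells, at 50% and 83.2% of cells. The gene that the reporter stands for was itself nearly absent: Il22 had 16 UMIs in 7 cells at 0 h and 1 UMI at 12 h in the libraries labelled IL-22-negative, and 6 UMIs in 3 cells at 0 h and 0 in 1348 cells at 12 h (which allows up to 0.598 CPM) in those labelled IL-22-positive. The RNA thus does not bear out the label of the 12 h library, and IL-22-positive and IL-22-negative are used here as names of sort labels. The IL-22-negative libraries, which held the most cells, shared 104 cell barcodes, and any other pair shared 0 to 12. How many would be shared by chance was not computed. Classes were named from marker genes, hence the ending "-like".

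The receptor was highest in the IL-22-negative libraries, and both ligands in the IL-22-positive ones. Cxcr3 stood at 112 CPM (1967 UMIs) at 0 h and 113 CPM (3098 UMIs) at 12 h in IL-22-negative cells, and at 18.6 CPM (21 UMIs) and 2.19 CPM (11 UMIs) in IL-22-positive cells. Cxcl9 stood at 19.8 and 29.6 CPM in IL-22-negative cells, and at 212 and 256 CPM in IL-22-positive cells. Cxcl10 stood at 57.5 and 233 CPM in IL-22-negative cells, and at 321 and 782 CPM in IL-22-positive cells. Between times, Cxcl10 of all IL-22-negative cells had a 4.05-fold ratio (3.79 to 4.33) and Cxcl9 a 1.49-fold ratio (1.31 to 1.69), or 2.47 without the top cell of each library, while Cxcr3 had a ratio of 1.01 (0.954 to 1.07). These whole-library values move with the classes each sort holds, so the classes are taken in turn.

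**Figure D1:**
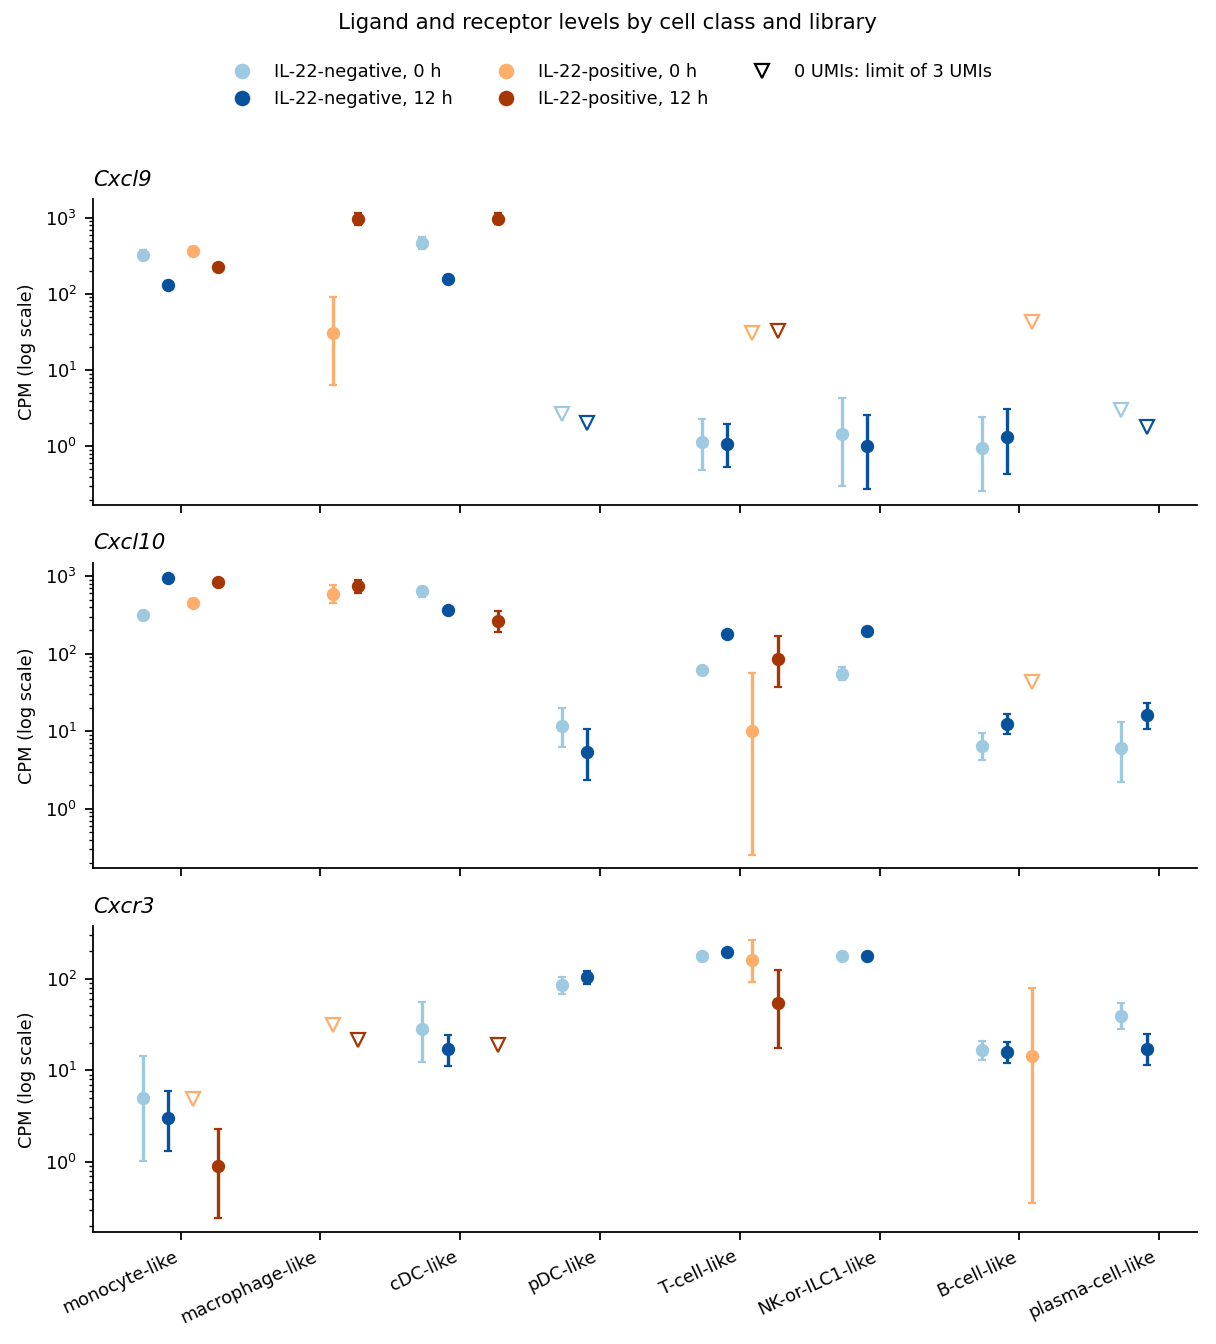
Levels (CPM, log scale) of Cxcl9, Cxcl10 and Cxcr3 in the cell classes shown, where a class held at least 30 cells in a library. There is 1 point per library, with exact 95% intervals for counting error. Basophil-like and neutrophil-like cells are not shown. Open triangles mark sums of 0 UMIs at the level that 3 UMIs would give. Cxcl9 was high in monocyte-like, macrophage-like and cDC-like cells and near 1 CPM in lymphocytes, Cxcl10 was also found in T-cell-like and NK-or-ILC1-like cells, and Cxcr3 was highest in those 2 classes.

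Cxcl9 was a gene of few cells. Of 19273 kept cells 196 held a Cxcl9 UMI, and the 90 cells with 5 or more held 93.8% of its 2685 UMIs. Those 90 cells were 60 monocyte-like, 18 cDC-like (conventional dendritic cells, which present antigen) and 4 macrophage-like cells, with 7 in mixed sub-clusters and 1 other. Monocyte-like, macrophage-like and cDC-like cells together held 94% and 74.05% of the Cxcl9 UMIs of the IL-22-negative libraries at 0 h and 12 h, in which they formed 2.87% and 8.96% of cells.

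In monocyte-like cells Cxcl9 stood at 326 CPM (282 to 375) at 0 h and 133 CPM (119 to 147) at 12 h in IL-22-negative cells, a ratio of 0.407 (0.341 to 0.487), where 5.8% of the 7670 genes measured in these cells were past 2-fold lower. At 0 h, however, 1 cell held 159 of the 197 UMIs, which is 80.7%. Without the top cell of each sum the ratio was 1.64 (1.16 to 2.37), so the direction turned on that cell. The share of monocyte-like cells with a Cxcl9 UMI was 4.02% (7 of 174 cells) at 0 h and 4.196% (24 of 572 cells) at 12 h. In IL-22-positive monocyte-like cells Cxcl9 stood at 365 and 223 CPM, a ratio of 0.610 (0.528 to 0.708) that became 1.12 (0.918 to 1.38) without the top cells, in a comparison where 7.48% of genes were past 2-fold lower. No direction in time for Cxcl9 in monocyte-like cells was therefore shared by all settings.

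In cDC-like cells Cxcl9 stood at 469 CPM (392 to 556) in 50 cells of 0 h and 158 CPM (139 to 179) in 286 cells of 12 h, with a ratio of 0.337 (0.272 to 0.420). This ratio was past 2-fold lower, as were 4.97% of the 5873 genes measured in that class (7.68% were higher), and it was 0.558 without the top cells. With the mixed sub-clusters kept it was 0.655. At 12 h the 37 IL-22-positive cDC-like cells stood at 974 CPM (826 to 1141), 6.16-fold (5.01 to 7.56) the IL-22-negative level, in a comparison where 8.11% of genes were past 2-fold higher and 16% lower. Of the 154 UMIs there, 53.9% lay in 1 cell. Part of them also lay in a sub-cluster led by Rsad2, described below, of 319 monocyte-like and 8 cDC-like cells over all libraries. It held 1061 Cxcl9 UMIs in this library, more than the 994 of all its monocyte-like cells. The cDC-like ratio without that sub-cluster was not computed. The 61 macrophage-like cells of that library stood at 970 CPM, with 84.4% of 135 UMIs in 1 cell.

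Cxcl9 was low in lymphocytes. At 12 h it stood at 1.08 CPM (11 UMIs) in T-cell-like, 1.01 CPM (4 UMIs) in NK-or-ILC1-like and 1.33 CPM (5 UMIs) in B-cell-like cells of the same library. These levels were 0.816%, 0.762% and 1.00% of the monocyte-like level, and no cell among them held more than 1 UMI. At 0 h, 1 T-cell-like cell held 6 of the 8 Cxcl9 UMIs of its class. As a comparison, Lyz2, the lysozyme gene of myeloid cells, was at 0.299%, 0.423% and 0.452% of its monocyte-like level in the same 3 classes. Plasmacytoid dendritic (pDC-like) cells held 0 Cxcl9 UMIs in 327 and 398 cells, which allows up to 2.70 and 2.01 CPM. Plasma-cell-like cells held 0 as well, which allows up to 3.03 and 1.78 CPM. The T-cell-like share of Cxcl9 at 12 h (0.404 to 1.48) lay above that of Lyz2, and the intervals of the other classes, 0.207 to 1.97 in NK-or-ILC1-like and 0.324 to 2.36 in B-cell-like cells, overlapped it.

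Cxcl10 was spread over more cells and more classes. It was found in 3.91% and 8.69% of IL-22-negative cells at 0 h and 12 h and in 14.6% and 26.0% of IL-22-positive cells. With every cell thinned to 1000 UMIs these shares were 2.36%, 5.42%, 9.13% and 17.3%, in the same order. In the IL-22-positive libraries monocyte-like cells held 78.2% and 96.0% of the Cxcl10 UMIs, and macrophage-like cells 15.7% and 2.65%. The macrophage-like cells stood at 593 CPM (449 to 768) in 31 cells of 0 h and 748 CPM (611 to 906) in 61 cells of 12 h. At 12 h 57.7% of their 104 UMIs lay in 1 cell. In the IL-22-negative libraries the source was divided: monocyte-like cells held 18.5% and then 39.0%, T-cell-like cells 42.6% and then 28.5%, and NK-or-ILC1-like cells 11.1% and then 12.2%.

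**Figure D2:**
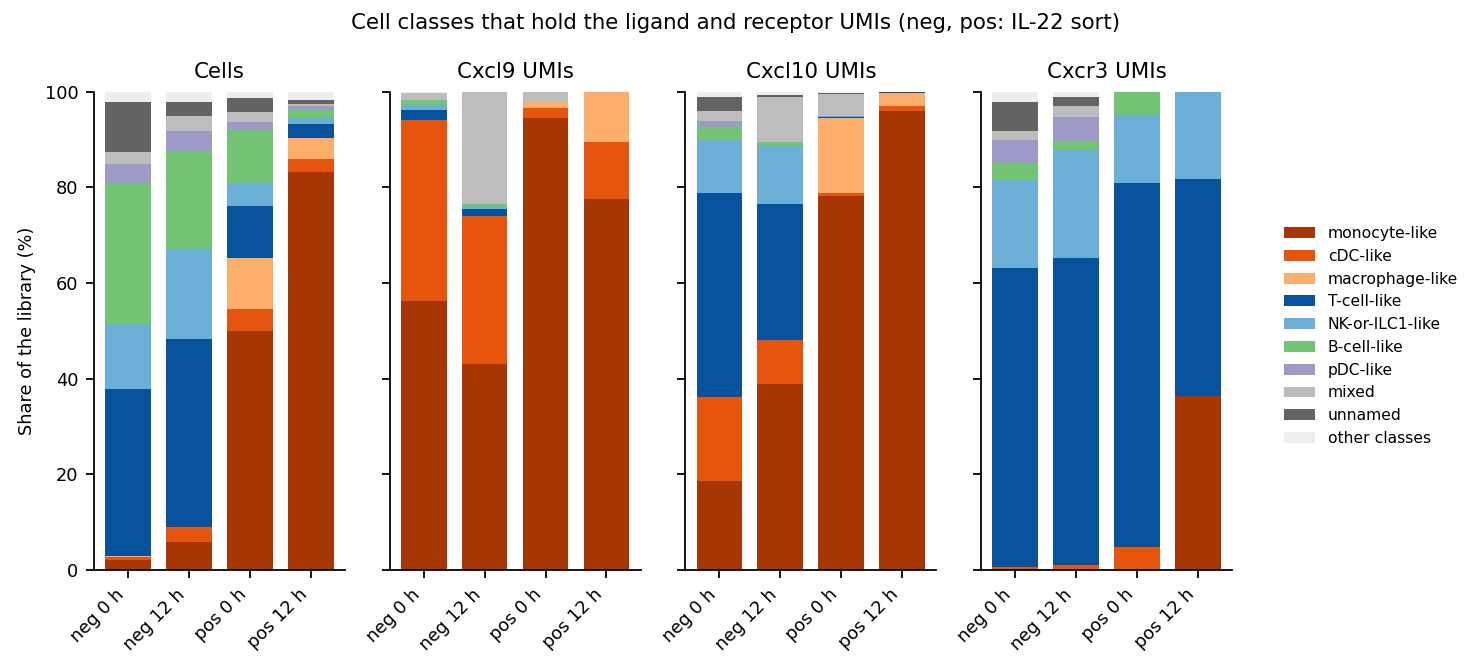
Share (%) of each library's cells and of its Cxcl9, Cxcl10 and Cxcr3 UMIs that lay in each cell class, as stacked bars per library. Monocyte-like cells held 39.0% of the IL-22-negative Cxcl10 UMIs of 12 h with 5.94% of the cells, while T-cell-like cells held 28.5% of them and 64.1% of the Cxcr3 UMIs. The IL-22-positive Cxcr3 bars rest on 21 and 11 UMIs.

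IL-22-negative monocyte-like cells stood at 311 CPM of Cxcl10 (268 to 359) at 0 h and 947 CPM (910 to 985) at 12 h, a 3.04-fold ratio (2.62 to 3.55). Of the 7670 genes measured in these cells 6.25% were past 2-fold higher. The share of these cells with a Cxcl10 UMI was 21.3% and 26.4%, and cells with 5 or more UMIs made up 5.75% and 11.0%. IL-22-positive monocyte-like cells stood at 458 and 846 CPM, a 1.85-fold ratio (1.64 to 2.09). Between the sorts the ratio, positive over negative, was 1.47 (1.22 to 1.78) at 0 h and 0.893 (0.849 to 0.940) at 12 h, and that of Cxcl9 was 1.12 (0.921 to 1.36) and 1.68 (1.49 to 1.90), with 2.81 at 0 h when the top cell of each sum was left out. In the class as a whole 0 of the 2 ligands were past 2-fold between the sorts, against 5.66% of genes higher and 4.64% lower at 0 h, and 3.14% and 6.33% at 12 h. The sorts also held other mixes of sub-clusters, with values of their own given next.

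The monocyte-like cells compared were not the same mix at both times. At 0 h, 100 of the 174 IL-22-negative monocyte-like cells belonged to the sub-cluster of non-classical monocytes led by Ace, Eno3 and Ear2. At 12 h most belonged to a sub-cluster led by Lrg1, Lcn2 and Chil3 (284 cells) and to a sub-cluster led by Tmem37, Itgb5 and Aif1 (120 cells). In the IL-22-positive sort, 82 of 144 monocyte-like cells were of the non-classical sub-cluster at 0 h and 39 of 1121 at 12 h. Within that sub-cluster the 12 h over 0 h ratio of Cxcl10 was 0.789 (0.429 to 1.36) in IL-22-negative cells and 0.265 (0.0685 to 0.737) in IL-22-positive cells, on 4 UMIs against 37. The Cxcl9 ratio in its IL-22-negative cells was 10.1 (2.43 to 59.2), on 8 UMIs against 3. Both the IL-22-positive Cxcl10 value and the IL-22-negative Cxcl9 value thus lay on the other side of 1 from the ratio of the whole class.

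A small sub-cluster held much of both ligands. It was led by Rsad2, Cxcl9 and Ifit1, antiviral interferon-response genes beside the chemokine, although Cxcl9, Cxcl10 and the interferon-response genes had been left out of the genes used for clustering. Its 54 IL-22-negative cells of 12 h stood at 7134 CPM of Cxcl10 (6801 to 7480) and 1249 CPM of Cxcl9 (1111 to 1398). They held 26.8% of the Cxcl10 and 36.9% of the Cxcl9 UMIs of the library. Its 248 IL-22-positive cells of 12 h stood at 2712 CPM of Cxcl10 and 996 CPM of Cxcl9, with 73.5% and 82.7% of the UMIs. At 0 h it had 7 and 18 cells. At 12 h the positive over negative ratio within it was 0.380 (0.358 to 0.404) for Cxcl10 and 0.798 (0.701 to 0.910) for Cxcl9. In the sub-cluster led by Tmem37, Itgb5 and Aif1, with 368 IL-22-positive and 120 IL-22-negative cells, it was 0.430 (0.353 to 0.525) for Cxcl10 and 2.40 (1.07 to 6.33) for Cxcl9, on 42 UMIs against 7. In the sub-cluster led by Lrg1, Lcn2 and Chil3, with 350 and 284 cells, it was 0.897 (0.792 to 1.02) for Cxcl10. In the first 2 of these sub-clusters Cxcl10 was therefore past 2-fold lower in the IL-22-positive sort, while the class ratio was 0.893. In the non-classical sub-cluster the Cxcl10 ratio was 0.218 (0.0529 to 0.675), on 4 UMIs against 16. In the sub-cluster led by Arg1, Pf4 and Ccl24 it was past 2-fold higher, at 3.22 (2.06 to 5.26), on 132 UMIs against 23. The share of genes past 2-fold within a sub-cluster was not computed, and in the whole class 6.33% were lower and 3.14% higher. Since the cells were grouped by genes that may vary with the ligands, these levels are a description. Without the sub-cluster led by Rsad2, an alternative chosen after its values were seen, the 12 h over 0 h ratio of Cxcl10 in IL-22-negative monocyte-like cells was 1.14 (0.965 to 1.36). The positive over negative ratio of Cxcl10 at 0 h then fell below 1, to 0.453, and that of Cxcl9 to 0.0802 at 0 h and 0.688 at 12 h. The value of 0.0802 rests on 2 Cxcl9 UMIs in the IL-22-positive cells. In IL-22-positive monocyte-like cells the 12 h over 0 h ratio of Cxcl9 turned to 3.83 (1.005 to 32.5), on 49 UMIs against 2.

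Other myeloid sub-clusters differed in their ligands at 12 h. The cDC1-like sub-cluster, led by Rtl8c, Xcr1 and Clec9a, held Cxcl9 at 275 CPM and Cxcl10 at 36.9 CPM in 63 IL-22-negative cells. The cDC2-like sub-cluster, led by Cd209a, Clec10a and Mgl2, held them at 114 and 461 CPM in 226 cells. The sub-cluster led by Lrg1, Lcn2 and Chil3 held Cxcl9 at 18.9 CPM, with 28 of 29 UMIs in 1 cell, and Cxcl10 at 328 CPM. The sub-cluster led by Arg1, Pf4 and Ccl24 held 0 Cxcl9 UMIs in 40 IL-22-negative cells and 2 in 97 IL-22-positive cells, beside Cxcl10 at 115 and 371 CPM. The share of each ligand thus varied among myeloid cells, with 0 and 2 Cxcl9 UMIs in the Arg1 and Pf4 cells.

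**Figure D3:**
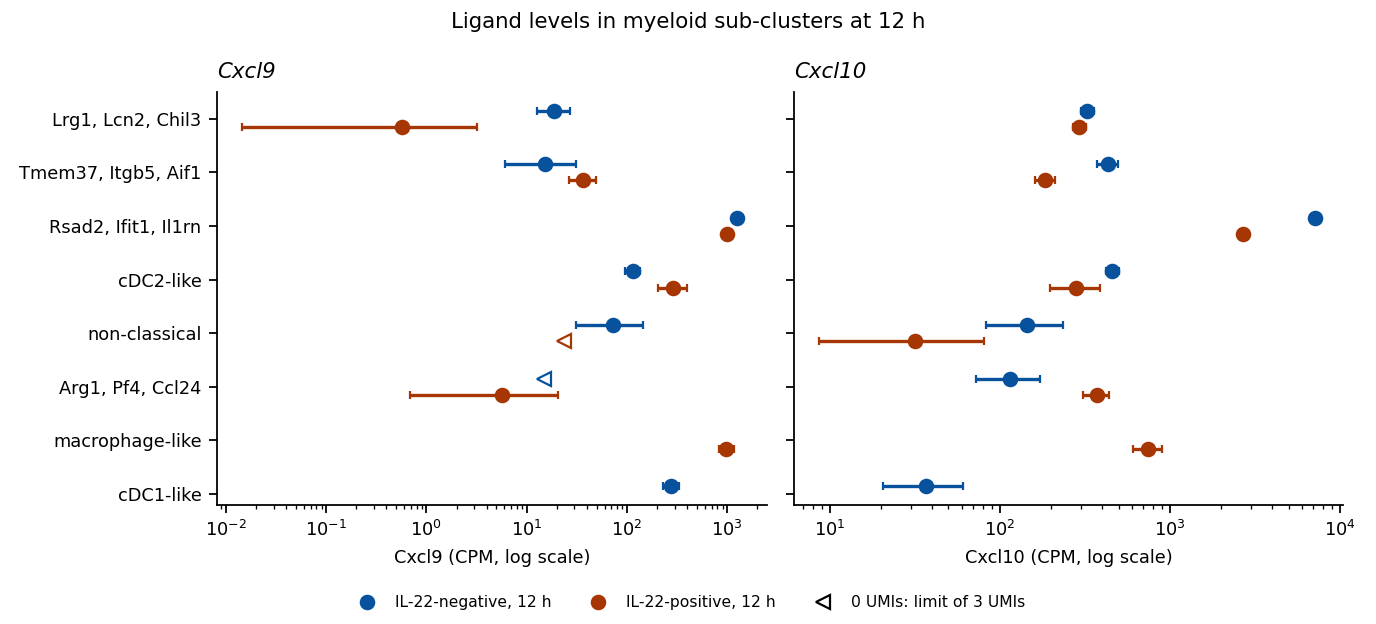
Levels (CPM, log scale) of Cxcl9 and Cxcl10 in myeloid sub-clusters of at least 20 cells at 12 h, 1 point per library with exact 95% intervals for counting error, and open triangles for 0 UMIs at the level of 3 UMIs. The sub-cluster labelled Rsad2, Ifit1, Il1rn (its leading genes apart from the ligands) stood highest for Cxcl10, at 7134 and 2712 CPM, and the cDC1-like cells stood at 275 CPM of Cxcl9 with 36.9 CPM of Cxcl10.

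The cDC-like cells had less Cxcl10 at 12 h than at 0 h. They stood at 636 CPM (546 to 736) in 50 cells of 0 h and 365 CPM (336 to 396) in 286 cells of 12 h, with a ratio of 0.575 (0.485 to 0.683), which is not past 2-fold. The ratio was 1.01 (0.860 to 1.19) with mixed sub-clusters kept in the class, which ends the difference. At 0 h 32.4% of the UMIs lay in 1 cell, and 11 of the 50 cells held any.

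T-cell-like and NK-or-ILC1-like cells held Cxcl10 with Cxcl9 near 1 CPM, and the Cxcl10 level was higher at 12 h. T-cell-like cells stood at 61.8 CPM (56.1 to 67.9; 432 UMIs) at 0 h and 180 CPM (171 to 188; 1823 UMIs) at 12 h, a 2.90-fold ratio (2.61 to 3.23). Of 10832 genes measured there 1.36% were past 2-fold higher and 2.93% lower. NK-or-ILC1-like cells, which kill or alert without an antigen receptor, stood at 55.4 CPM (113 UMIs) and 197 CPM (778 UMIs), a 3.55-fold ratio (2.91 to 4.36), where 1.02% of 9333 genes were past 2-fold higher and 4.24% lower. Cxcl10 was the only measured member past 2-fold in either class (Cxcl9 had under 20 UMIs). Both ratios stayed past 2-fold in every alternative setting run for them. In T-cell-like cells the share with a Cxcl10 UMI was 5.25% and 9.39%, or 3.00% and 5.95% when thinned to 1000 UMIs.

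The Cxcl10 of these lymphocytes stood above the level that Lyz2, taken as a monocyte transcript, reached in them. At 12 h it was at 19.0% (17.8 to 20.1) of the monocyte-like level in T-cell-like cells and 20.8% (19.1 to 22.5) in NK-or-ILC1-like cells. In B-cell-like cells there it was at 1.32% (0.969 to 1.76), and in pDC-like cells at 0.567% (0.245 to 1.12). Basophil-like cells were not low, on few UMIs. At 0 h they stood at 56.4 CPM (18.3 to 132; 5 UMIs in 39 cells), 18.1% (5.81 to 43.0) of the monocyte-like level, against 19.9% in T-cell-like cells. At 12 h they stood at 135 CPM (69.6 to 235; 12 UMIs in 26 cells). Lyz2 stood at 0.299% of its monocyte-like level in T-cell-like cells and at 0.452% (0.402 to 0.507) in B-cell-like cells, at median depths of 2318 and 1596 UMIs. The 12 h Cxcl10 of B-cell-like cells thus also lay above Lyz2, by less than that of T-cell-like or NK-or-ILC1-like cells. The ratio of Cxcl10 to Cxcl9 UMIs, compared between classes only, was 7.13 (6.38 to 8.002) in monocyte-like, 9.4 (3.76 to 30.3) in B-cell-like, 166 (92.4 to 333) in T-cell-like and 194 (75.7 to 716) in NK-or-ILC1-like cells. These are 12 h values, where the B-cell-like interval overlapped the monocyte-like one and the other 2 did not. At 0 h the monocyte-like ratio was 0.954 (0.777 to 1.17), with 80.7% of the Cxcl9 UMIs in 1 cell. The B-cell-like ratio was then 6.75 (2.35 to 26.5), the T-cell-like 54 (27.2 to 126) and the NK-or-ILC1-like 37.7 (12.6 to 185). The monocyte-like interval overlapped none of these at 0 h, that of the B-cell-like cells included. The part of free RNA in these values was not tested.

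Within these classes Cxcl10 was concentrated in a minority of cells. Of 3793 T-cell-like cells of 12 h, 101 (2.66%) held 5 or more Cxcl10 UMIs and 76.7% of the UMIs of the class, with at most 58 in a cell. At 0 h it was 20 of 2802 cells (0.714%), with 53.9% of the UMIs. Of the NK-or-ILC1-like cells 45 of 1812 (2.48%) did so at 12 h and 5 of 1086 (0.460%) at 0 h. Of the B-cell-like cells 1 of 1970 did so at 12 h and 0 of 2354 at 0 h.

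**Figure D4:**
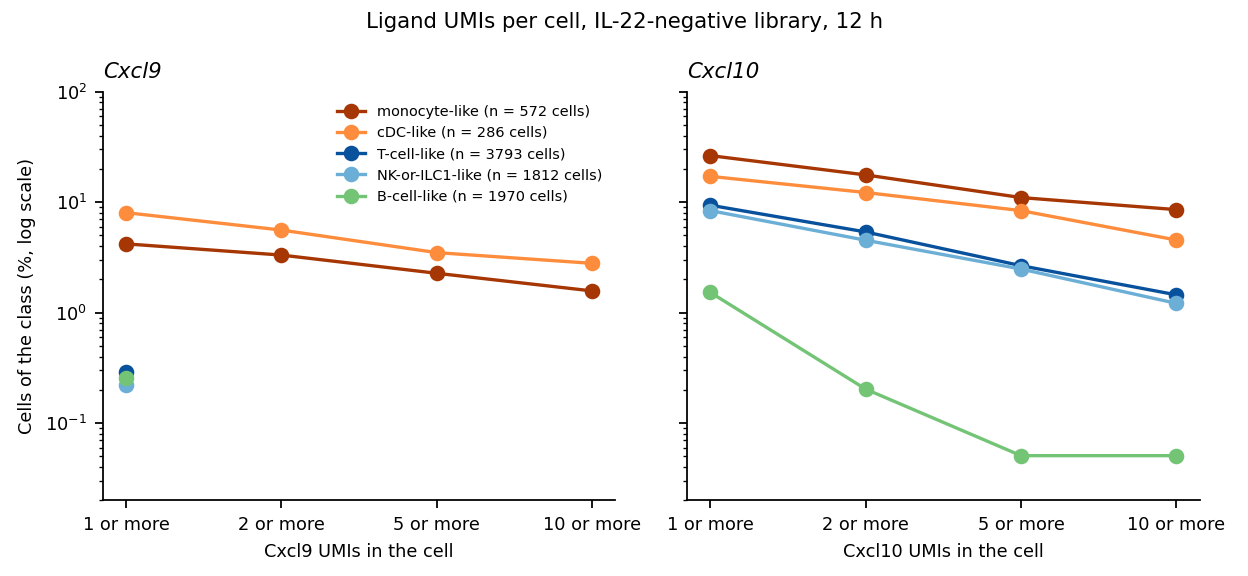
Share of cells (%, log scale) with at least 1, 2, 5 or 10 UMIs of Cxcl9 or Cxcl10 in 5 cell classes of IL-22-negative cells at 12 h, where a missing point means that no cell reached that count. For Cxcl10, 11.0% of monocyte-like, 2.66% of T-cell-like, 2.48% of NK-or-ILC1-like and 0.0508% of B-cell-like cells held 5 or more UMIs, and for Cxcl9 no lymphocyte held more than 1.

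The T-cell-like cells with 5 or more Cxcl10 UMIs were also rich in other interferon-response transcripts. The 15 genes of the type I interferon list, which does not hold Cxcl10, summed to 8796 CPM in them and to 877 CPM in the 3437 T-cell-like cells of 12 h without Cxcl10. In NK-or-ILC1-like cells the sums were 7097 and 680 CPM, and in monocyte-like cells 9975 and 886 CPM. The interferon gamma list summed to 5077 and 2147 CPM in the T-cell-like cells. In NK-or-ILC1-like cells it summed to 5135 and 2360 CPM, and in monocyte-like cells to 4148 and 1390 CPM. Ifng, the gene of interferon gamma, stood at 371 and 154 CPM in T-cell-like and 1125 and 290 CPM in NK-or-ILC1-like cells. Lyz2 did not follow: it stood at 61.2 CPM in the T-cell-like cells with 5 or more Cxcl10 UMIs and 53.1 CPM in those without. The summed monocyte list, which holds Ly6c2 and Plac8 that lymphocytes also express, stood at 2298 and 1223 CPM, and the summed T-cell markers were lower, at 2849 (2665 to 3044) and 3808 CPM (3768 to 3848). The part of other cells' RNA or of doublets in these values was not tested. Median depths were 2661 and 2287 UMIs. At 12 h Cxcr3 stood at 99.9 CPM in the T-cell-like cells with 5 or more Cxcl10 UMIs and 202 CPM in those without. At 0 h it was not lower, at 242 CPM (132 to 406) in the 20 such cells and 177 CPM in those without. The monocyte list (1072 and 1258 CPM) and the T-cell markers (4044 and 3855 CPM) also lacked the 12 h direction at 0 h. The type I (3785 and 541 CPM) and interferon gamma lists (4321 and 2195 CPM) kept it. These cells were picked by their Cxcl10 counts, so the values are a description.

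Most lymphocyte sub-clusters described here had more Cxcl10 at 12 h. Of the 10 sub-clusters of these cells 7 are described: 1 of shallow cells (median depths of 725 and 733 UMIs), 1 with B-cell markers and 1 other are left out. Of these 7, 6 had 12 h over 0 h ratios of Cxcl10 above 1, from 3.01 (2.30 to 4.0002) in NK-like cells to 6.94 (5.39 to 9.05) in naive-like cells led by Dapl1, Cd8b1 and Fam241a. The regulatory-T-like sub-cluster, led by Tnfrsf4, Areg and Hist1h2ae and holding Foxp3, had the highest Cxcl10 level of the 7 at 0 h, at 189 CPM (164 to 217). It stood at 162 CPM (141 to 185) at 12 h, a ratio of 0.856 (0.701 to 1.04). At 0 h its 423 cells held 19.4% of the Cxcl10 UMIs of that library. Cell-cycle genes were also among its leading genes, and the part of cycling cells in its levels was not tested. The other naive-like sub-cluster, led by Igfbp4, Ly6c1 and Trib2, was the lowest at both times, at 8.996 and 52.2 CPM.

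B-cell-like cells went from 6.44 CPM of Cxcl10 (27 UMIs) to 12.5 CPM (47 UMIs), a ratio of 1.94 (1.19 to 3.25), and 0 of the 2 members measured were past 2-fold there, against 0.855% of genes higher and 3.38% lower. Plasma-cell-like cells went from 6.06 to 16.03 CPM on 6 and 27 UMIs, past 2-fold at 2.64 (1.07 to 7.83), as were 4.49% of genes there. The pDC-like cells had 13 UMIs (11.7 CPM) at 0 h and 8 UMIs (5.37 CPM) at 12 h, a ratio of 0.459 (0.165 to 1.19) against 3.52% of genes past 2-fold lower and 1.43% higher. With sums of at most 47 UMIs, no direction is read from these classes.

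Cells with both ligands were mostly myeloid. At 12 h 20 of the 24 IL-22-negative monocyte-like cells with Cxcl9 (83.3%) also held Cxcl10, and 43 of 65 IL-22-positive ones (66.2%) did. Conversely, 13.2% and 12.95% of the monocyte-like cells with Cxcl10 held Cxcl9. Of 356 T-cell-like cells with Cxcl10, 2 held Cxcl9.

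The receptor was borne by lymphocytes. T-cell-like cells held 62.6% and 64.1% of the Cxcr3 UMIs of the IL-22-negative libraries, and NK-or-ILC1-like cells 18.4% and 22.5%. T-cell-like cells stood at 176 CPM (167 to 186) at 0 h and 196 CPM (187 to 204) at 12 h, a ratio of 1.11 (1.03 to 1.19). NK-or-ILC1-like cells stood at 177 CPM (159 to 196) and 176 CPM (163 to 190), a ratio of 0.996 (0.875 to 1.13). The pDC-like cells stood at 84.6 CPM (68.4 to 104) and 104 CPM (88.3 to 122), a ratio of 1.23 (0.946 to 1.61). Levels of the T-cell-like and NK-or-ILC1-like cells overlapped in their intervals at both times, and pDC-like cells came next in the order at both times.

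Shares of cells with a Cxcr3 UMI were 29.8% and 34.7% in T-cell-like, 24.9% and 28.0% in NK-or-ILC1-like and 22.9% and 30.9% in pDC-like cells. Thinned to 1000 UMIs they were 16.01% and 17.9%, 15.1% and 15.6%, and 7.50% and 10.2%. Monocyte-like cells served as background, with 1.72% and 1.40% of cells and 4.97 and 3.03 CPM at median depths of 3865.5 and 4775 UMIs. B-cell-like cells stood above it, at 16.7 and 15.7 CPM. Plasma-cell-like cells, at 39.4 CPM (39 UMIs) and 17.2 CPM (29 UMIs), had a ratio of 0.437 (0.261 to 0.725), past 2-fold lower as were 7.31% of genes there. Among cDC-like cells, where 8 and 27 UMIs gave 28.4 and 16.9 CPM, 22 of the 27 UMIs of 12 h lay in the cDC1-like sub-cluster, at 54.1 CPM (33.9 to 81.9).

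Cxcr3 varied more between lymphocyte sub-clusters than between times. The sub-cluster led by Cd40lg, Ckb and Zbtb16, the last encoding the PLZF factor of innate-like T cells, was the highest, at 327 CPM (301 to 355) and 316 CPM (298 to 336). It held 29.8% and 35.0% of the Cxcr3 UMIs of the IL-22-negative libraries. ILC1-like cells, led by Gzmc, Cd7 and Xcl1, followed at 260 and 249 CPM, and regulatory-T-like cells at 234 and 221 CPM, with intervals that overlap those of the ILC1-like cells. NK-like cells, led by Cma1, Klra4 and Klra8, stood at 55.7 CPM (40.3 to 74.98) and 50.7 CPM (39.9 to 63.6), so the ILC1-like and NK-like parts of the class differed in the receptor beyond counting error.

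Effector-T-like cells, led by Gzmk, Cx3cr1 and Cd8b1, stood at 135 CPM (103 to 174) and 211 CPM (178 to 248), a ratio of 1.56 (1.15 to 2.15). The naive-like sub-clusters had ratios of 1.24 (1.02 to 1.498) and 1.49 (1.02 to 2.20), at 80.5 and 99.6 CPM for the Dapl1 cells and 48.4 and 72.1 CPM for the Igfbp4 cells. For the other 4 sub-clusters, ratios lay between 0.912 and 0.966 with intervals that include 1. Of the 7 sub-clusters 0 were past 2-fold.

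**Figure D5:**
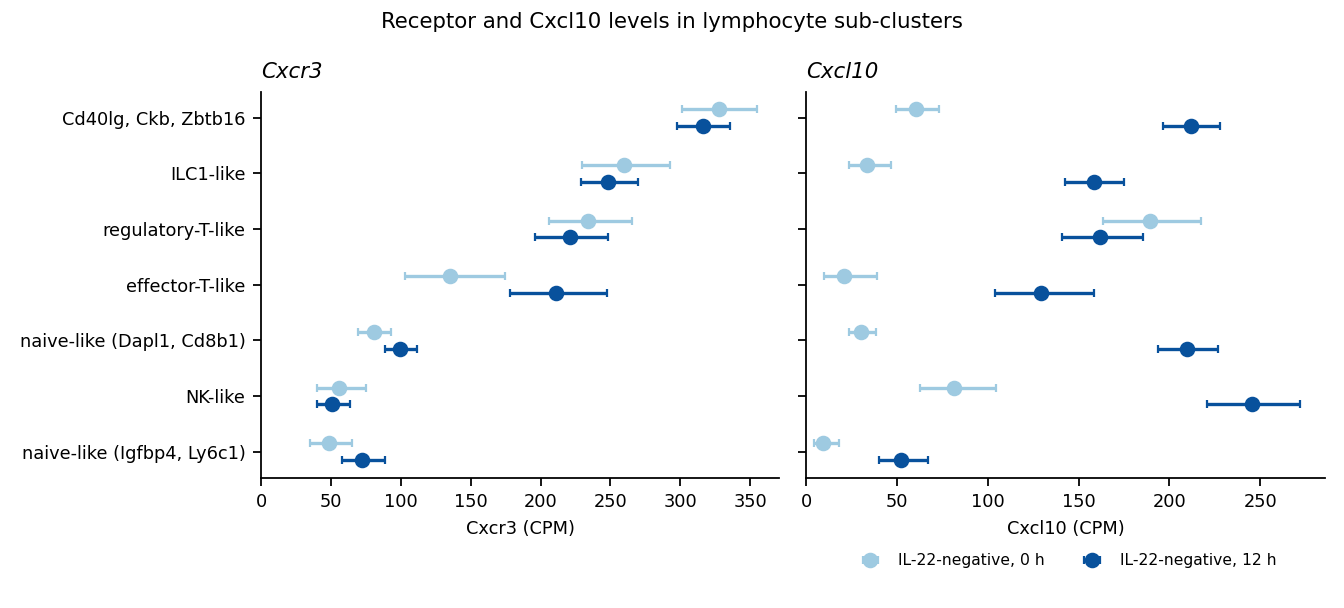
Levels (CPM) of Cxcr3 and Cxcl10 in 7 lymphocyte sub-clusters of the IL-22-negative libraries at 0 h and 12 h, with exact 95% intervals for counting error. Cxcr3 ran from 327 CPM in the Cd40lg, Ckb and Zbtb16 cells to 48.4 CPM in naive-like cells at 0 h with small shifts in time, while Cxcl10 was higher at 12 h in all but the regulatory-T-like cells.

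The IL-22-positive libraries held few receptor-bearing cells. Their 31 T-cell-like cells of 0 h held 16 Cxcr3 UMIs, at 162 CPM (92.6 to 263), a ratio of 0.919 (0.524 to 1.499) to the IL-22-negative ones. Their 38 T-cell-like cells of 12 h held 5 UMIs, at 54.0 CPM (17.5 to 126), a ratio of 0.276 (0.0895 to 0.645). Of 9925 genes measured in that comparison 9.78% were past 2-fold lower and 40.5% higher, on the small sum of 38 cells. In these cells the 9 hepatocyte marker genes, of which 7 had a UMI and Alb was at 0, summed to 755 CPM, against 9.36 CPM in IL-22-negative T-cell-like cells of 12 h, and their part in the result was not tested. Cxcl10 there stood at 86.3 CPM on 8 UMIs, 7 of them in 1 cell.

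Single genes of the pathway differed in their ratios of 12 h over 0 h. Ifng, the gene of interferon gamma, stood at 151 and 165 CPM in T-cell-like cells (ratio 1.09, 1.01 to 1.18) and at 291 and 329 CPM in NK-or-ILC1-like cells (1.13, 1.02 to 1.25). In B-cell-like cells its ratio was 0.599 (0.390 to 0.905). Tbx21, the T-bet factor that drives Cxcr3 in type 1 lymphocytes, had ratios of 1.08 (0.918 to 1.28) and 0.854 (0.698 to 1.05) in the same classes. Cxcr6, another receptor of liver lymphocytes, had ratios of 0.878 in T-cell-like and 0.817 in NK-or-ILC1-like cells. Cxcl16, the ligand of CXCR6, stood at 36.4 and 44.4 CPM in monocyte-like cells (1.22, 0.768 to 2.02).

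Of the lists chosen beside the members, the type I interferon list had the most genes past 2-fold higher in the lymphocytes. In NK-or-ILC1-like cells 6 of its 14 measured genes were past 2-fold higher (against 1.02% of all genes measured), 0 were lower, and the median log2 ratio was 0.84 against -0.19 over all genes measured. The highest were Rsad2, at 34.5-fold on 67 UMIs against 1 (5.99 to 1385), Ifit1 (6.12-fold), Ifit3 (3.42-fold) and Usp18 (2.89-fold). In T-cell-like cells 10 of 15 were higher and 0 lower (median 1.24 against -0.11), beside 1.36% of all genes. In cDC-like cells 10 of 14 were higher (1.44 against 0.01), beside 7.68%, and in IL-22-negative monocyte-like cells 3 of 14 (0.04 against -0.06), beside 6.25%. In IL-22-positive monocyte-like cells 9 of 15 were higher (1.19 against -0.08), where 6.81% of genes were. In B-cell-like cells it was 1 of 14, Rsad2, beside 0.855% of all genes, and in pDC-like cells 0 of 8, beside 1.43%.

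The interferon gamma list did not move in that way. In T-cell-like cells 0 of 17 measured genes were past 2-fold in either direction (median log2 ratio 0.02), and in NK-or-ILC1-like cells 1 of 17 was, Ciita at 0.473, on 11 UMIs against 12. Of all genes measured, 1.36% were past 2-fold higher and 2.93% lower in T-cell-like cells, and 1.02% and 4.24% in NK-or-ILC1-like cells. In IL-22-negative monocyte-like cells 1 of 17 was higher, Cd274 at 2.11, and 1 lower, Tap1 at 0.480, which is near the 6.25% and 5.8% of all genes there, and Irf1, a transcription factor of the interferon gamma response, had a ratio of 0.579 (0.503 to 0.668). In cDC-like cells 0 were higher and 4 of 16 lower, Gbp4, Socs1, Tap1 and Gbp2, at 0.265 to 0.383, beside 4.97% of all genes. The list of 24 genes around CXCR3 (interferon gamma, its receptor, IL-12 and IL-18 signalling and receptor coupling) had 1 of 18 past 2-fold in NK-or-ILC1-like cells, Dpp4 at 0.430, which encodes a protease that trims the ligands. In T-cell-like cells it was 1 of 19, Ebi3 at 0.472. With lists this short, 1 lower gene is near the shares of all genes past 2-fold lower. Those were 4.24% in NK-or-ILC1-like and 2.93% in T-cell-like cells. Among 7 measured chemokine receptors of NK-or-ILC1-like cells Ccr7 (0.387) and Cx3cr1 (0.464) were lower, beside 4.24% of all genes. Among 5 lymphocyte-attracting ligands Cxcl10 alone was past 2-fold, where 1.02% of all genes were higher.

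Across 17 sums of class and library with at least 50 cells, the genes closest in pattern to each member were found by Pearson correlation of log2(CPM + 10). The sums share libraries and depth, so the values describe likeness only. Cxcl10 was most like Nfkbia (r = 0.97), Ccrl2 (0.94), Cdkn1a (0.93), Snx10 (0.92), Rac1, Ms4a6d, Lilrb4a and Tmem106a (0.89). Cxcl9 was most like Aif1 (0.97), Bcl2a1a, Cxcl16 (0.96), Pid1, Lrrc25, Tmem106a, Sdc3 and Snx10 (0.95). Cxcr3 was most like Cd8a (0.94), Tnfrsf18 (0.93), Ctsw (0.92), Il7r, Lat, Tespa1, Sept1 and Pim2 (0.89). With a pseudocount of 50 in place of 10, 5, 3 and 4 of the 8 genes were shared for Cxcl10, Cxcl9 and Cxcr3, so the order depends on low levels.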

How the data were processed

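The authors deposited 4 matrices of UMI counts, whole numbers per gene and cell, 1 for each library. They were written by Cell Ranger 4.0.0 per the file headers, but version 3.0.1, with the build mm10, is named in the submitters' processing notes. Per the labels' protocols, the libraries were 3' v2. A cell needed 200 genes or more and a mitochondrial share below 10%, which removed 254, 132, 11 and 28 barcodes. Scrublet (scanpy 1.11.5) took out 299, 464, 1 and 2 doublets. For the IL-22-negative library of 0 h, where its automatic threshold called 0, the threshold of 12 h was used. Total UMIs kept were 17634080 and 27492816 (IL-22-negative) and 1129138 and 5018814 (IL-22-positive).

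Clusters (leidenalg 0.10.2, resolution 1, 2000 variable genes, 30 components, 15 neighbours) were made without the members, interferon-response and cell-cycle genes, and named from at least 3 markers. Cells of the 4 mixed sub-clusters (198, 308, 6 and 4 cells), whose leading genes went against their class, and unnamed cells (836, 280, 8 and 13) stayed out of the classes; that exclusion, the placing of cells of mixed clusters cell by cell and the doublet threshold were decided after seeing the data. The members and lists were chosen with earlier results of these data known.

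UMIs were summed per class and library (at least 50 cells for ratios in time, 30 between sorts) and given as CPM. Intervals are exact (Poisson, binomial, Clopper-Pearson) at 95%. With 1 library per group there was no test. A gene counted as measured with at least 20 UMIs in both sums together, and a sum of 0 was limited at 3 UMIs. Ratios and intervals were tested on counts simulated with counting error only, the error the intervals assume. That test does not cover UMIs concentrated in few cells, as those of Cxcl9 were. Named genes are the members, the 8 genes most like each (at least 100 CPM in a sum), up to 4 genes per list past 2-fold in the class with the largest member change, Ifng, Cxcl11, Irf1, Tbx21, Cxcr6 and Cxcl16 (others of that rule, 1 motif searched and 1 lymphocyte sub-cluster are not reported here), and the 3 leading genes of a sub-cluster. Foxp3, Ebi3, Cd274, Tap1, Gbp4, Socs1, Gbp2 and, in a figure label, Il1rn were named after their values were seen.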

Additional observations from a re-analysis of the deposited data

Results flagged for a closer look

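With 1 library per group, a difference between classes means that the ratios of 12 h over 0 h lay on opposite sides of 1, with intervals for counting error that exclude 1, and that the difference itself was not tested. Among IL-22-negative cells Cxcl10 had ratios of 2.90 in T-cell-like, 3.55 in NK-or-ILC1-like, 3.04 in monocyte-like, 1.94 in B-cell-like and 2.64 in plasma-cell-like cells, and 0.575 in cDC-like cells. The B-cell-like and plasma-cell-like sums rest on 27 and 6 UMIs at 0 h, and with sums this small no direction is read from them. The cDC-like ratio was 1.01 with mixed sub-clusters kept, and the monocyte-like ratio was 1.14 without the sub-cluster led by Rsad2. Cxcr3 had a ratio of 1.11 in T-cell-like and 0.437 in plasma-cell-like cells.

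Cells outside the named classes also held ligand UMIs. Among IL-22-negative cells of 12 h the 308 cells of mixed sub-clusters, led by markers of another class than their cluster (T, B or pDC), stood at 343 CPM of Cxcl10 and 110 CPM of Cxcl9, against 34 and 7.72 CPM at 0 h. The 280 unnamed cells stood at 103 CPM of Cxcl10, against 44.3 CPM at 0 h. Whether mixed cells are doublets was not tested beyond the removal of Scrublet calls.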

How the results depend on the processing

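Of 175 values that 18 ratios took under other settings, 145 stayed within the counting interval of the reported value, 24 moved beyond it and 6 changed direction, a change of direction being counted only for a reported ratio whose interval excludes 1. The cause was not tested unless the setting itself names it. Cxcl10 in T-cell-like and NK-or-ILC1-like cells and Cxcr3 in pDC-like cells stayed within it in every setting run for them. Without the sub-cluster led by Rsad2, an alternative chosen after seeing the data, the ratios of all IL-22-negative cells were 3.06 for Cxcl10 and 1.84 for Cxcl9. In monocyte-like cells they were then 1.14 (Cxcl10 in time, IL-22-negative), 3.83 (Cxcl9 in time, IL-22-positive, interval 1.005 to 32.5), 0.0802 and 0.453 (Cxcl9 and Cxcl10, positive over negative at 0 h) and 0.688 and 0.812 (the same at 12 h). The values of 3.83 and 0.0802 rest on the same 2 Cxcl9 UMIs of IL-22-positive cells at 0 h. Without the top cell of each sum, the Cxcl9 ratio of all cells was 2.47. In monocyte-like cells it gave 1.64 for Cxcl9 and 3.89 for Cxcl10 in time (IL-22-negative), 1.12 and 2.49 (IL-22-positive), 2.81 for Cxcl9 between sorts at 0 h, and 1.92 for Cxcl9 and 0.969 for Cxcl10 at 12 h. In cDC-like cells it gave 0.558 for Cxcl9 and 0.746 for Cxcl10. With mixed sub-clusters kept (added after seeing the data), Cxcl10 in cDC-like cells was 1.01 and Cxcl9 was 0.655 there and 0.513 in monocyte-like cells. Median-ratio scaling gave 4.55 for Cxcl10 and 1.13 for Cxcr3 of all cells, and 1.19 and 1.14 for Cxcr3 in T-cell-like and NK-or-ILC1-like cells. Clusters at resolution 0.5 gave 0.697 for Cxcl10 in cDC-like and 0.767 for Cxcl9 in time in IL-22-positive monocyte-like cells, and resolution 2 gave 0.474 for the latter. At least 500 genes and under 5% mitochondrial UMIs gave 1.94 for Cxcl9 between sorts at 12 h, and no doublet removal gave 0.972 for Cxcl10. Of 42 shares of cells with a UMI, 39 were lower when thinned to 1000 UMIs. Of 80 counts of list genes past a threshold, 27 moved by over 1.5 times at 1.5-fold or 50 UMIs. No paired analysis was possible because each group holds 1 library, and for the same reason nothing here separates conditions from libraries. Depth limits Cxcl9 in lymphocytes and Cxcr3 in IL-22-positive cells, where a class held 0 to 16 UMIs, and likewise Cxcl10 in pDC-like cells (13 and 8 UMIs).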
